A study of Lotus japonicus with 10 samples.

Results

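Leaves kept in glutathione for 6 h were compared with leaves kept in it for 3 h, to ask which transcripts still rose after 3 h and which had already passed their peak. The comparison was chosen by sample label and holds 6 of the 10 arrays of the study, 3 per time. All samples were total RNA from mature, detached leaves of glasshouse-grown Lotus japonicus MG20, a model legume. The leaves of both groups lay in a solution of 10 mM glutathione (GSH, a thiol tripeptide applied as an elicitor) shaken at 200 rpm and 28 degrees Celsius. The 4 unelicited leaf samples, labelled 0 h, were used for levels only and took no part in the test. No time-matched leaves without GSH were analysed here, so GSH, detachment and submersion cannot be told apart, nor can time in GSH and time of day.

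Glutathione-treated legume tissue is known to make isoflavonoid phytoalexins, in Lotus chiefly vestitol. The route starts with phenylalanine ammonia-lyase (PAL) and cinnamate 4-hydroxylase (C4H), passes through chalcone synthase (CHS) with chalcone reductase and chalcone isomerase (CHI), and enters the isoflavonoid branch at the cytochrome P450 CYP93C. Transcription factors of the ERF, WRKY, NAC and MYB families are well known among early defence genes of plants, and members of one family can act in opposite ways and at different times.

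The array is a focused design of 5716 probes for 3148 names, chiefly transcription factors, cytochrome P450s, glycosyltransferases and phenylpropanoid enzymes. Names sharing a locus, or differing only by the ending est, were taken as 1 target, which left 2563 targets. On the 6 arrays 2644 to 3063 probes were well above background (46.3% to 53.6%), and no spot was saturated. Arrays within 3 h correlated at 0.981 to 0.988 across probes and arrays within 6 h at 0.963 to 0.980, against 0.932 to 0.958 between the times. All 6 arrays lay on 1 slide with 2 of the unelicited ones, but the 3 arrays of 6 h filled row 1 with 3 h replicate 1, while 3 h replicates 2 and 3 lay in row 2. Row therefore moves with time for most arrays. The design carries 0 names of the leaf photosynthesis markers that would check the tissue label, so the label was not checked. A signal here is log2 of the processed intensity relative to the 75th percentile of that array, and the levels of different probes are not comparable with each other. In whole leaves, fewer cells with a transcript and less transcript per cell cannot be told apart.

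Between 3 h and 6 h, 510 of 2704 tested probes differed (18.9%), 280 of them higher at 6 h (10.4%) and 230 lower (8.51%), in limma at an adjusted p under 0.05. Taken as 1 probe per target, 258 of 1306 targets differed (19.8%), 136 higher (10.4%) and 122 lower (9.34%). Among the probes that passed, the median log2 difference was 1.50 for the rises and -1.26 for the falls, and 78 rises and 34 falls reached a log2 size of 2. The direction split depends on the scaling. With spike-in scaling, which moved the median of all probes to -0.45, 140 probes were higher and 541 lower, and with normexp background correction 43 were higher and 7 lower. The count also rests on single arrays: it was 144 without 3 h replicate 1, 287 without 3 h replicate 2, 155 without 3 h replicate 3 and 169 without 6 h replicate 2. Within row 1 alone, with 1 array at 3 h, 0 probes passed in limma (535 at an unadjusted p under 0.05), and the part of row in the differences was not tested otherwise.

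**Figure D1:**
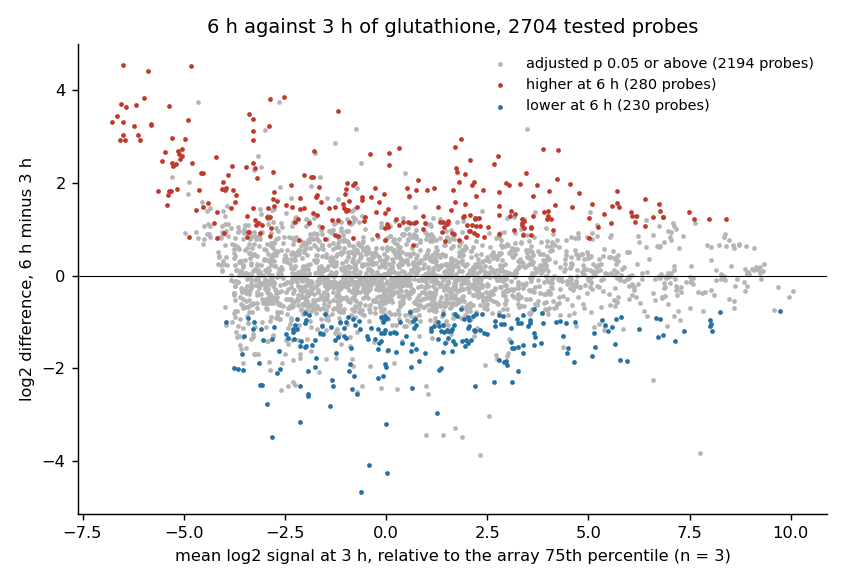
Each point is 1 of 2704 tested probes, with its mean relative log2 signal at 3 h (n = 3) on the x axis and the log2 difference between 6 h and 3 h on the y axis. Red points (280) were higher and blue points (230) lower at 6 h, and both kinds lie along most of the range of 3 h signals.

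Rises were of 3 kinds when set beside the unelicited leaves. Of the 280 probes higher at 6 h, 152 (54.3%) already had all 3 of their 3 h arrays above all 4 unelicited arrays and so were still rising. Over all tested probes 46.8% had their 3 h arrays above the unelicited ones. Another 64 overlapped the unelicited arrays at 3 h, and 42 of these lay above them at 6 h, a later onset. The last 64 had fallen below the unelicited arrays by 3 h, as had 25.4% of all tested probes. Of these, 28 overlapped the unelicited range again at 6 h, 28 were still below it and 8 lay above it.

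Falls divided in a like manner. Of the 230 probes lower at 6 h, 111 (48.3%) were transient, with the 3 h arrays all above the unelicited ones. That share is close to the 46.8% of all tested probes with their 3 h arrays above. At 6 h, 63 of the 111 were still above every unelicited array, 45 overlapped them and 3 lay below. A further 62 overlapped the unelicited arrays at 3 h, and 41 of these lay below them at 6 h. The remaining 57 (24.8%) were below the unelicited arrays at both times and were still falling. Over all tested probes a like 25.4% lay below the unelicited arrays at 3 h. These classes share the 3 h arrays with the test and are descriptions. They use the order of signals with no background filter. For a probe not well above background at 3 h, still rising and a later onset therefore cannot be told apart. Set against the 2 unelicited arrays of the same slide only, 169 probes were still rising and 121 transient.

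PAL, the first enzyme of phenylpropanoid synthesis, was the family with the largest share of calls among those with at least 7 tested targets. Of its 14 targets 12 were lower at 6 h (85.7%, beside 9.34% of all targets) and 1 was higher, with a median log2 difference of -1.10 (-0.02 over all targets). All 12 were still above every unelicited array at 6 h, so the fall was from a peak and not back to the start. PAL06_chr1.CM0033.960.nc had unelicited signals of 4.60, 4.69, 4.90 and 5.06, against 8.18, 8.41 and 8.18 at 3 h and 7.31, 7.42 and 7.66 at 6 h. The time groups did not overlap, and the 6 h mean fell by 0.79 (SE 0.21, adjusted p = 0.039). PAL08_chr3.CM0574.220.nd moved further, from 5.53, 5.82 and 5.61 at 3 h to 4.33, 4.0 and 4.18 at 6 h, a log2 difference of -1.48 (SE 0.21, adjusted p = 0.0079). Its unelicited arrays lay between -0.40 and 0.43, far below both times.

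The PAL targets named for one stretch of chromosome 1, PAL02 to PAL07, gave differences from -0.79 to -1.33. Probe sequences were not used here, and copies of near-identical sequence would share signal, so their number is uncertain as a count of genes. Targets named for other loci (PAL08, PAL10, PAL11, PAL12, PAL13 and PAL14) were lower too, with differences from -0.97 to -1.60.

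Against the family, PAL09_chr5.LjT17D03.50.nd rose between the times. Its signals were 3.88, 3.80, 1.98 and 2.75 in unelicited leaves, -0.73, -1.11 and -1.18 at 3 h and -0.24, 0.98 and 1.52 at 6 h. It was therefore low at 3 h and partly recovered by 6 h, by 1.76 (SE 0.44, adjusted p = 0.036), and its second probe rose by 2.92 (SE 0.44, adjusted p = 0.0086). For PAL01_CM1729.60.nc the brighter probe did not pass (-0.35, SE 0.22, adjusted p = 0.29), while the dimmer one rose by 0.82 (SE 0.21, adjusted p = 0.037), so the 2 probes of that name disagree. The PAL count held its direction for 12 or 13 of 14 targets in every refit of the probes, but the number that passed as lower in limma was 0 with normexp or within row 1, 6 without a filter, 3 with the spread of all 10 arrays, 7 without 3 h replicate 1, 6 without 3 h replicate 2, 5 without 3 h replicate 3 and 6 without 6 h replicate 2.

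**Figure D2:**
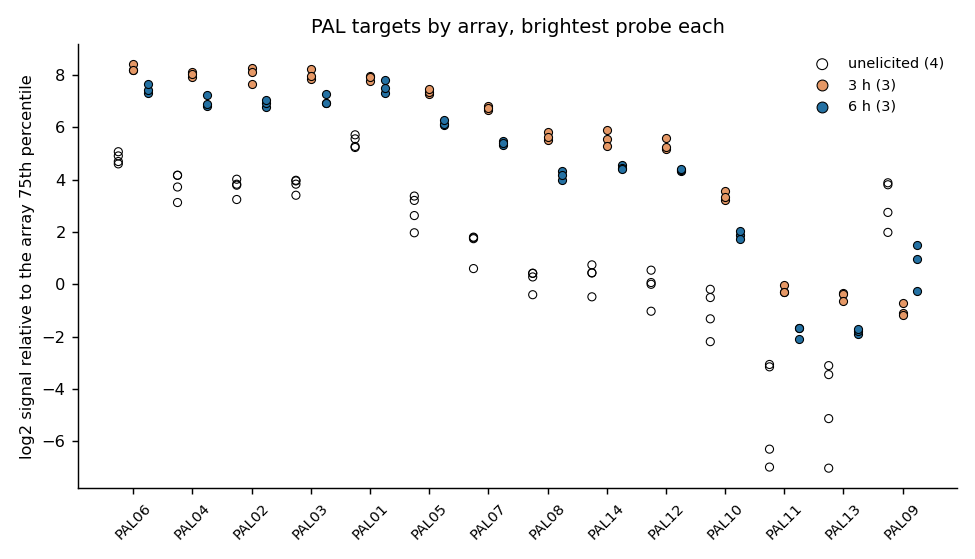
Relative log2 signal (y axis) of the brightest probe of each of the 14 PAL targets (x axis, ordered by 3 h level) on every array: open points are the 4 unelicited arrays, orange the 3 at 3 h and blue the 3 at 6 h. In 12 targets the blue points lie below the orange and above the open ones, and PAL09 runs the other way.

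Further down the route few steps followed PAL in the main scaling. Of 6 C4H targets 1 was higher and 0 lower, of 14 coumarate ligase targets 0 were higher and 1 lower, and of 26 CHS targets 0 were higher and 2 lower. Of 5 CHI targets 2 were higher. Over all targets 10.4% were higher and 9.34% lower. The ligase count moved with the scaling: 4 targets were lower with quantile normalization, 5 with spike-in scaling and 0 with normexp. In each of these settings 0 C4H targets were higher. C4H03_LjSGA_082453.1 stood at 3.45 and 3.29 on the 2 usable 3 h arrays, 1 spot being left out as an outlier, and at 4.71, 4.19 and 4.48 at 6 h. It was already above its unelicited range of -2.81 to -1.33 at 3 h and rose by a further 1.09 (SE 0.26, adjusted p = 0.037). The ligase CoumLig7_chr1.CM0064.390.nc, in contrast, went from 4.23, 4.47 and 4.66 to 3.70, 3.55 and 3.03, a log2 difference of -1.03 (SE 0.26, adjusted p = 0.035).

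The CHS family had a median log2 difference of -0.01 with 13 of 26 targets above 0, but its balance moved with the scaling: 0 of 26 were above 0 with spike-in scaling (median -0.43), 4 with quantile normalization (median -0.21) and 18 with normexp (median 0.40). Both CHS targets that passed were ones that glutathione leaves held below the unelicited level. CHS29_LjSGA_022124.2 had signals of 5.15 to 6.18 in unelicited leaves, 3.79, 3.43 and 3.73 at 3 h and 2.22, 2.04 and 2.98 at 6 h, and so fell by 1.24 (SE 0.30, adjusted p = 0.031). CHS02_chr1.CM0105.430.nc fell likewise by 1.08 (SE 0.30, adjusted p = 0.045). In 2 other names a dimmer probe rose, by 1.04 (SE 0.27, adjusted p = 0.037) for CHS08_chr2.CM0018.1080.nc and by 1.42 (SE 0.22, adjusted p = 0.0091) for CHS22_chr4.CM0044.260.nd, while the brighter probe of the same target did not pass.

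CHI closes the chalcone ring. CHI04_chr5.CM0260.400.nc went from 2.20, 2.10 and 1.94 to 2.64, 3.11 and 3.40, a rise of 0.97 (SE 0.25, adjusted p = 0.038) from below all unelicited arrays, which lay at 2.81 to 3.65. At 6 h 1 array was still below that range, and all 3 were below the 2 unelicited arrays of the same slide. CHI01_ rose by 1.82 (SE 0.48, adjusted p = 0.047) on 2 usable arrays at 6 h. Its unelicited arrays were split by slide, at 2.68 and 3.19 on one and 5.93 and 6.60 on the other. Beside the unelicited arrays of the shared slide, its 3 h arrays lay below and its 6 h arrays overlapped. All 5 CHI differences were above 0, from 0.84 to 1.82. With quantile normalization or spike-in scaling 0 of the 5 passed, and with normexp 1 did. Of the polyketide reductases that act with CHS as chalcone reductases, 1 of 7 targets was lower and 0 higher. PKR3_chr2.CM0191.480.nc fell from 7.70, 8.16 and 8.34 to 7.0, 7.18 and 6.40 (log2 difference -1.21, SE 0.29, adjusted p = 0.032). The other 6 targets did not pass, and the family median was -0.54 with 2 differences above 0. With quantile normalization or spike-in scaling 5 of the 7 were lower, and with normexp 0.

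In the isoflavonoid branch the entry enzyme gave no call. CYP93C17_LjT24P23.50.nc stood at 7.25, 7.93 and 7.91 at 3 h and at 7.01, 7.55 and 7.46 at 6 h, a log2 difference of -0.36 (SE 0.28, adjusted p = 0.39), with both times above all unelicited arrays. None of the 5 tested CYP93 targets passed in limma (2 at an unadjusted p under 0.05). All 5 differences were below 0, with a median of -0.81, while with normexp 2 were above 0 (median -0.57). With spike-in scaling 1 target was lower. The next enzyme, 2-hydroxyisoflavanone dehydratase (HID), went both ways. HID2_LjSGA_020298.1 rose from -0.45, 0.79 and -0.13 to 2.68, 2.79 and 1.92, by 2.39 (SE 0.39, adjusted p = 0.010), after unelicited signals of -3.91 to -2.49. HID5_chr4.CM0079.310.nc fell from 2.14, 1.98 and 1.78 to 0.36, 0.32 and 1.04, by 1.40 (SE 0.27, adjusted p = 0.016), after unelicited signals of 5.47 to 7.67. The first was thus still rising and the second still falling, and neither pair of time groups overlapped.

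The isoflavone 2'-hydroxylase targets of the CYP81E family that passed, 2 of 5 tested, rose from an already high level. With quantile normalization 2 were higher too, but with spike-in scaling or normexp 0 were. I2H3_chr2.CM0250.30.nc stood at 6.51, 6.79 and 7.22 at 3 h and at 8.16, 8.62 and 7.56 at 6 h, a difference of 1.27 (SE 0.33, adjusted p = 0.038). The probes of CYP81ELT_1_ntc gave 1.27 (SE 0.36, adjusted p = 0.047) and 1.28 (SE 0.29, adjusted p = 0.027). Its brighter probe stood at 6.39, 6.81 and 7.32 at 3 h, close to I2H3. Without probe sequences it is uncertain whether these names are separate transcripts. Later in the route, the vestitone reductase name VR3_chr1.CM1255.310.nc rose by 1.22 (SE 0.31, adjusted p = 0.044), and its second probe by 1.14 (SE 0.28, adjusted p = 0.033). It was the 1 target called higher of 11 with IFR, VR or PTR names. With quantile normalization, spike-in scaling or normexp 0 of the 11 were higher. The isoflavone reductase IFR6_chr2.CM0249.1070.nc, near 9.7 at 3 h, fell by 0.76 (SE 0.21, adjusted p = 0.044) on 1 probe and by a value that did not pass on the other (-0.47, SE 0.23, adjusted p = 0.18).

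Of 7 methyltransferase targets 2 were higher (28.6%, beside 10.4% of all targets) and 5 had differences below 0, with a median of -0.33. One of the calls, 7Methyl10_LjSGA_041643.1, turned to -0.0811 with normexp and did not pass. 7Methyl2_chr2.CM0191.600.nc rose from 2.41, 3.26 and 2.71 to 3.88, 4.35 and 4.05, by 1.30 (SE 0.28, adjusted p = 0.022). The 8 tested targets named for isoflavone glucosyltransferases gave 0 calls in limma (1 at an unadjusted p under 0.05), and the brightest at 3 h, IFLGT03_chr4.CM0739.130.nd, kept nearly its level between the times (-0.04, SE 0.29, adjusted p = 0.93) at signals of 7.13 to 7.89, against -4.72 to -3.42 in unelicited leaves.

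Dirigent proteins, which guide the coupling of phenoxy radicals, were the other phenylpropanoid family with most tested targets called lower. Of 7 tested targets 4 were lower (57.1%, beside 9.34% of all targets) and 0 higher, and 3 differences were above 0. With quantile normalization or spike-in scaling 4 were lower too, but with normexp 0 were. Dir22_chr3.CM0243.180.nc had unelicited signals between -7.08 and -5.90, reached 3.45, 2.16 and 2.41 at 3 h and stood at 0.04, -0.18 and 1.22 at 6 h. This fall of 2.31 (SE 0.47, adjusted p = 0.019) left it well above the unelicited arrays. Dir24_LjSGA_127369.1 and Dir08_LjSGA_058477.2, picked here after their values were seen, fell by 1.68 (SE 0.25, adjusted p = 0.0086) and by a similar 1.55 (SE 0.26, adjusted p = 0.011) in turn. The brightest, Dir11_LjSGA_033937.1, did not pass (0.89, SE 0.38, adjusted p = 0.13).

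**Figure D3:**
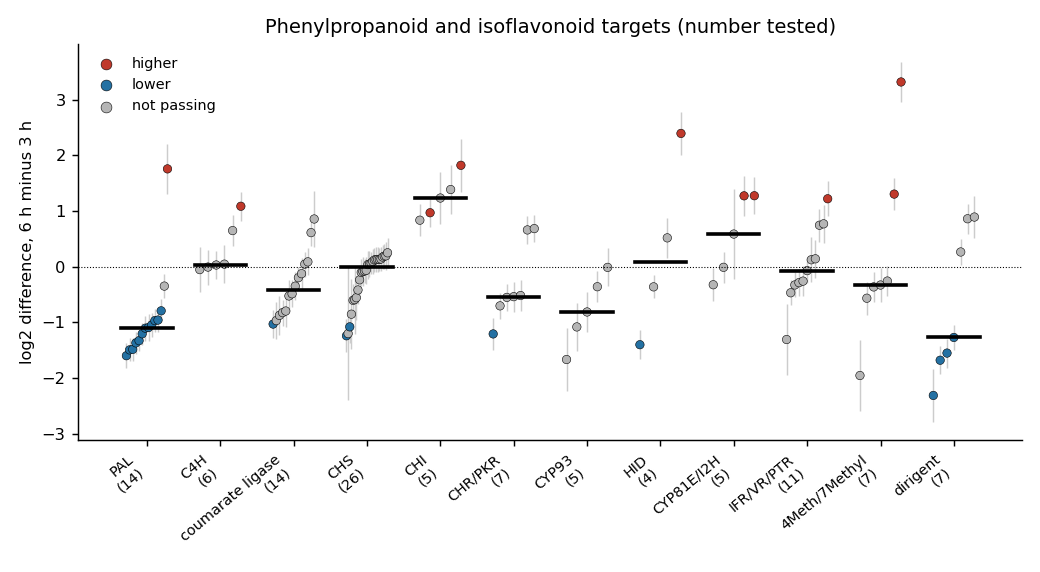
Log2 difference between 6 h and 3 h (y axis, bars 1 SE) for each tested target of 12 phenylpropanoid and isoflavonoid steps (x axis, number tested in brackets), with the median of each step as a black line. PAL and dirigent targets lie mostly below 0 with medians of -1.10 and -1.27, all 5 CHI targets lie above 0, and CHS lies around 0 in this scaling.

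Of the flavonol and anthocyanidin names, 3 of 21 targets were higher (14.3%) and 2 lower (9.52%), near the 10.4% and 9.34% of all targets. LDO01_chr2.CM0002.400.nc was transient, at 1.61 to 2.47 in unelicited leaves, 5.95, 5.65 and 6.27 at 3 h and 4.56, 3.62 and 4.15 at 6 h (log2 difference -1.85, SE 0.30, adjusted p = 0.011). F3H01_chr3.CM0208.350.nc gave the second largest rise of all targets, 4.53 (SE 1.28, adjusted p = 0.049), but its 3 h arrays were spread from -6.61 to -1.57.

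Among 58 ERF factors, a family that includes ethylene-responsive regulators, 11 were higher and 15 lower, a larger share in both directions (19.0% and 25.9%) than over all targets. With spike-in scaling 5 were higher and 20 lower, and with normexp 1 and 1. Of the 11 that were higher, 8 had been above the unelicited arrays by 3 h, and of the 15 that were lower, 9 had, beside 46.9% of all targets. LjERF20 fell furthest, from 0.59, -0.85 and 0.36 at 3 h to -4.16, -4.92 and -3.59 at 6 h, by 4.26 (SE 0.48, adjusted p = 0.0065). Its unelicited arrays were split by slide, at -4.56 and -2.86 on one and 2.10 and 2.26 on the other, so no class can be given for it. The probe LjERF20_est was not well above background at 6 h and was at least 12.9-fold lower there (adjusted p = 0.0069), a bound from the lowest signal that was well above background on each array.

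In the other direction LjERF4 went from -5.34, -4.53 and -4.79 to -1.72, -1.24 and -1.60, a rise of 3.37 (SE 0.28, adjusted p = 0.0034). LjERF41, picked after its values were seen, is a brighter case: it was at -7.13 to -5.72 in unelicited leaves, 3.11, 2.85 and 2.90 at 3 h and 4.80, 5.40 and 4.68 at 6 h, still rising by 2.01 (SE 0.26, adjusted p = 0.0076). LjERF24_est, picked likewise, was transient, at 3.02, 2.99 and 2.93 at 3 h and 1.50, 0.49 and 1.16 at 6 h (log2 difference -1.93, SE 0.29, adjusted p = 0.0086). These 3 genes had no overlap between the times.

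WRKY factors, defence regulators that bind the W-box, gave 8 higher (16.3%) and 2 lower (4.08%) of 49 targets, beside 10.4% and 9.34% of all targets. Their median was 0.50 with 39 of 49 differences above 0, but with spike-in scaling it was 0.08 with 27 above 0, and 4 were called higher and 4 lower. Of the 8 that were higher in the main scaling, 6 were classed as still rising. Of all 49 tested WRKY targets, 35 lay above the unelicited arrays at 3 h, a like share. LjWRKY42 is among the 6 classed as still rising, but it was not well above background on any 3 h or unelicited array. For it a later onset cannot be told apart. It was at least 7.72-fold higher at 6 h (adjusted p = 0.0041), with signals of -1.44, -1.53 and -2.11 there. LjWRKY25, picked after its values were seen, rose from 0.85, 0.81 and 0.72 to 3.33, 2.93 and 2.34, by 2.07 (SE 0.28, adjusted p = 0.0079). LjWRKY38 fell by 1.56 (SE 0.35, adjusted p = 0.032) on 2 usable 6 h arrays, from a level within the unelicited range.

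NAC factors, named NAM here, gave 7 higher (17.1%) and 2 lower (4.88%) of 41 targets, beside 10.4% and 9.34% of all targets. With spike-in scaling they gave 6 higher and 6 lower, and with normexp 3 and 0. LjNAM45 rose from -3.33, -1.74 and -2.51 at 3 h to 1.64, 1.28 and 1.06 at 6 h, by 3.85 (SE 0.41, adjusted p = 0.0056), having been below -6.7 on all unelicited arrays. LjNAM72 had a later onset: it overlapped the unelicited arrays at 3 h, where no array was well above background, and was at least 5.62-fold higher at 6 h (adjusted p = 0.0034). LjNAM48 was transient and fell by 2.04 (SE 0.47, adjusted p = 0.033), to -0.66, -1.47 and -0.06, of which 1 array overlapped the unelicited range of -2.76 to -0.72.

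MYB factors gave 9 higher (17.3%) and 6 lower (11.5%) of 52 targets, beside 10.4% and 9.34% of all targets. MYB-related names gave 9 higher (15%) and 5 lower (8.33%) of 60. With spike-in scaling MYB gave 8 higher and 9 lower, and MYB-related names turned to 5 higher and 12 lower. With normexp each gave 1 higher and 0 lower. LjMYB-GARP-G2-like16 rose by 3.49 (SE 0.45, adjusted p = 0.0076), from -2.90, -3.66 and -3.63 to 0.51, 0.66 and -0.89, and was still rising. LjMYB-SHAQKY2 was the opposite case among the large rises. It was bright in unelicited leaves of one slide (4.98 and 4.95), near 0 on the other, not well above background at 3 h and at -2.38, -3.01 and -2.99 at 6 h, at least 3.60-fold higher than at 3 h (adjusted p = 0.0034) and still below every unelicited array. LjMYB35 fell by 1.38 (SE 0.31, adjusted p = 0.025) and was below the unelicited arrays at both times.

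C2H2 zinc fingers gave 8 higher (11.6%) and 2 lower (2.90%) of 69 targets, beside 10.4% and 9.34% of all targets. With spike-in scaling the split turned to 2 higher and 8 lower, and with normexp it was 2 and 0. Of the 8 higher in the main scaling, 4 were still rising and the other 4 lay below the unelicited arrays at 3 h. Of all 69 tested C2H2 targets, 37 lay above the unelicited arrays at 3 h. LjZF-C2H2-41_est rose from 1.44, 1.73 and 2.37 to 5.55, 5.09 and 3.76, by 2.95 (SE 0.49, adjusted p = 0.011), and its plain-named probe LjZF-C2H2-41 by 2.71 (SE 0.44, adjusted p = 0.0098). LjZF-C2H2-1 was transient and fell by 1.53 (SE 0.31, adjusted p = 0.018), to 0.81, 0.67 and -0.25, where 1 array overlapped its unelicited range of -1.06 to 0.22. In the RING family, many of whose members are ubiquitin ligases, 11 of 140 targets were higher (7.86%) and 8 lower (5.71%). With spike-in scaling 6 were higher and 26 lower, and with normexp 2 and 0. The largest RING rise, LjZF-C3HC4-139, was at least 3.46-fold (adjusted p = 0.0034) and started from below the unelicited level.

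Among smaller factor families, GRAS gave 4 higher of 25 targets (16.0%) and bZIP 4 higher of 27 (14.8%), shares near the 10.4% of all targets. With spike-in scaling GRAS gave 0 higher and 4 lower, and bZIP 1 higher and 5 lower. B3 gave 5 lower of 22 (22.7%) and TCP, regulators of leaf growth, 4 lower of 14 (28.6%), beside 9.34% of all targets, and with normexp 0 targets of either family passed. LjTCP6 was briefly high, with unelicited signals of 0.08 to 0.76, then 1.34, 1.55 and 1.35 at 3 h and -0.13, -0.72 and 0.13 at 6 h (log2 difference -1.65, SE 0.27, adjusted p = 0.010). Of the 4 TCP targets that fell, 3 were above the unelicited arrays at 3 h and overlapped them at 6 h. Of all 14 tested TCP targets, 5 were above the unelicited arrays at 3 h. LjbZIP6 crossed the unelicited range in the other direction, from -1.26, -0.57 and -0.93 to 0.76, 0.80 and 0.50, a rise of 1.61 (SE 0.25, adjusted p = 0.0091).

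Heat shock factors gave 3 higher and 1 lower of 15 targets, and the homeodomain names 4 higher and 3 lower of 37. LjHD19 was among the homeodomain rises, by 2.57 (SE 0.36, adjusted p = 0.0095), from 2.92, 2.59 and 2.82 to 5.88 and 4.82 on 2 usable arrays, after unelicited signals below -4.3. The bHLH family gave 5 higher (8.20%) and 7 lower (11.5%) of 61, near the shares of all targets. LjbHLH3 fell by 2.60 (SE 0.71, adjusted p = 0.045) and was still falling from its unelicited level, whereas LjbHLH14 was transient and fell by 2.39 (SE 0.54, adjusted p = 0.026).

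**Figure D4:**
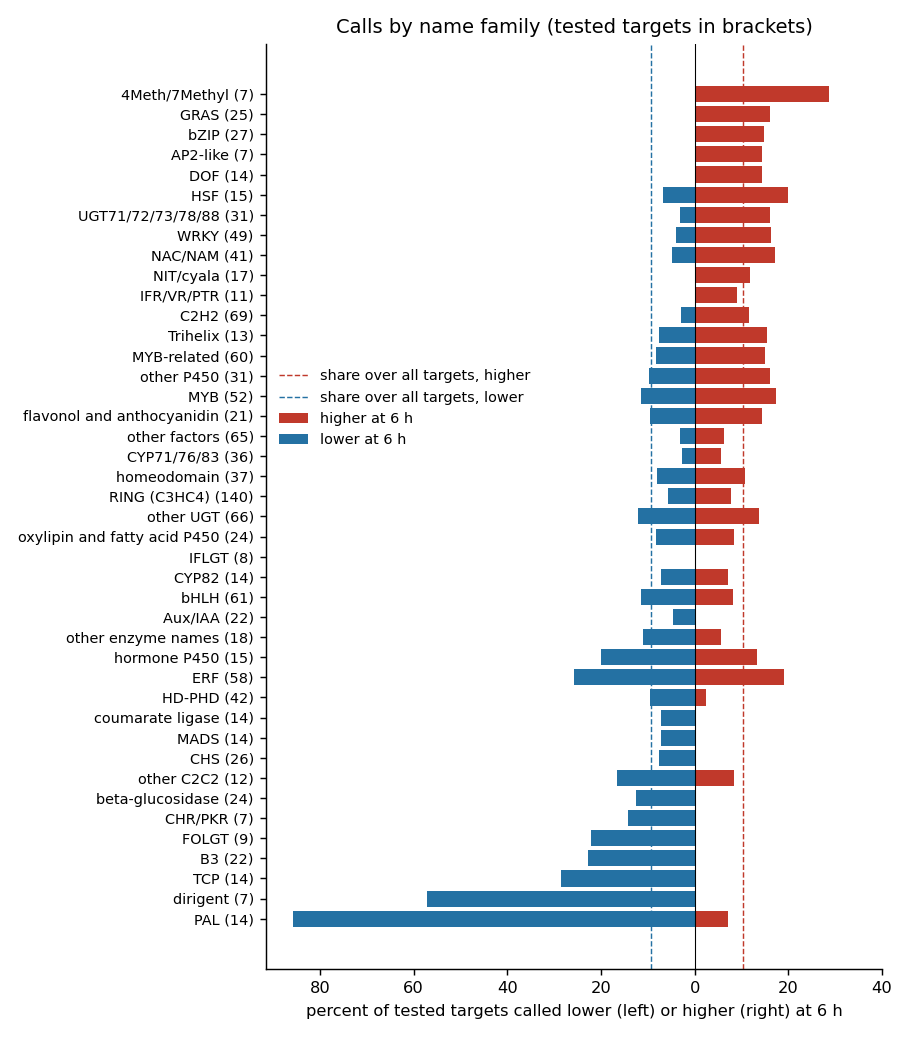
Percent of tested targets (x axis) that were higher (red, to the right) or lower (blue, to the left) at 6 h in each name family with at least 7 tested targets, number tested in brackets, with dashed lines at the shares over all 1306 targets (10.4% and 9.34%). PAL and dirigent have the longest blue bars, and ERF extends beyond both dashed lines.

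Cytochromes P450 outside the isoflavonoid route included hormone and sterol enzymes with strong changes. CYP710A enzymes, which desaturate the sterol side chain at C22, rose in all 3 tested targets that carry that name. The bright probe of CYP710A_LjT35M05.60.nd went from 3.20, 3.91 and 4.07 to 5.75, 6.04 and 5.29, by 1.97 (SE 0.32, adjusted p = 0.0098), still rising. Its dimmer probe rose by 2.55 (SE 0.24, adjusted p = 0.0036) but lay below the unelicited arrays at both times, so the 2 probes agree on the change and not on the class. CYP710ALT_1_ntc and CYP710A_LjSGA_013225.1, picked after their values were seen, gave rises of 1.98 (SE 0.41, adjusted p = 0.019) and of 1.88 (SE 0.50, adjusted p = 0.041). CYP51LT_1_ntc, named for the sterol 14-demethylase and also picked afterwards, fell instead, from 3.79, 4.03 and 3.69 to 2.59, 1.79 and 2.75 (log2 difference -1.46, SE 0.30, adjusted p = 0.018).

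CYP707A enzymes inactivate abscisic acid, and 2 of 3 tested targets fell, while CYP707A_LjT10I01.150.nc did not pass (-0.19, SE 0.66, adjusted p = 0.87). CYP707A_chr5.CM0852.320.nc went from 0.37, -0.83 and -0.14 to -2.62, -3.21 and -1.40, a log2 difference of -2.21 (SE 0.51, adjusted p = 0.028). CYP707ALT_1_ntc, picked after its values were seen, was clearly transient, at -2.77 to -2.16 in unelicited leaves, 3.61, 2.98 and 3.16 at 3 h and 1.32, 0.73 and 1.50 at 6 h (log2 difference -2.07, SE 0.29, adjusted p = 0.0079). The brassinosteroid enzyme CYP90A_LjSGA_014057.1 showed the reverse course. It was at 0.52 to 1.21 in unelicited leaves, not well above background at 3 h, and at least 1.99-fold higher at 6 h (adjusted p = 0.0071), still below the unelicited arrays. With normexp its difference turned to -0.26 and did not pass.

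CYP94A enzymes, fatty acid hydroxylases, differed among themselves. CYP94A_chr1.CM0109.390.nc rose by 1.39 (SE 0.29, adjusted p = 0.021), from 6.25, 6.95 and 7.12 to 7.85, 8.36 and 8.27. CYP94A_LjT22H02.40.nc fell from 1.83, 0.93 and 0.98 to -1.63, -2.60 and -0.95, by 2.98 (SE 0.46, adjusted p = 0.0091), where 2 of 3 arrays lay within its unelicited range. CYP94A_chr5.CM0345.390.nd fell by 3.20 (SE 0.47, adjusted p = 0.0083) to -3.12, -4.14 and -2.37, with 2 of 3 arrays below its unelicited range of -2.47 to -0.66.

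**Figure D5:**
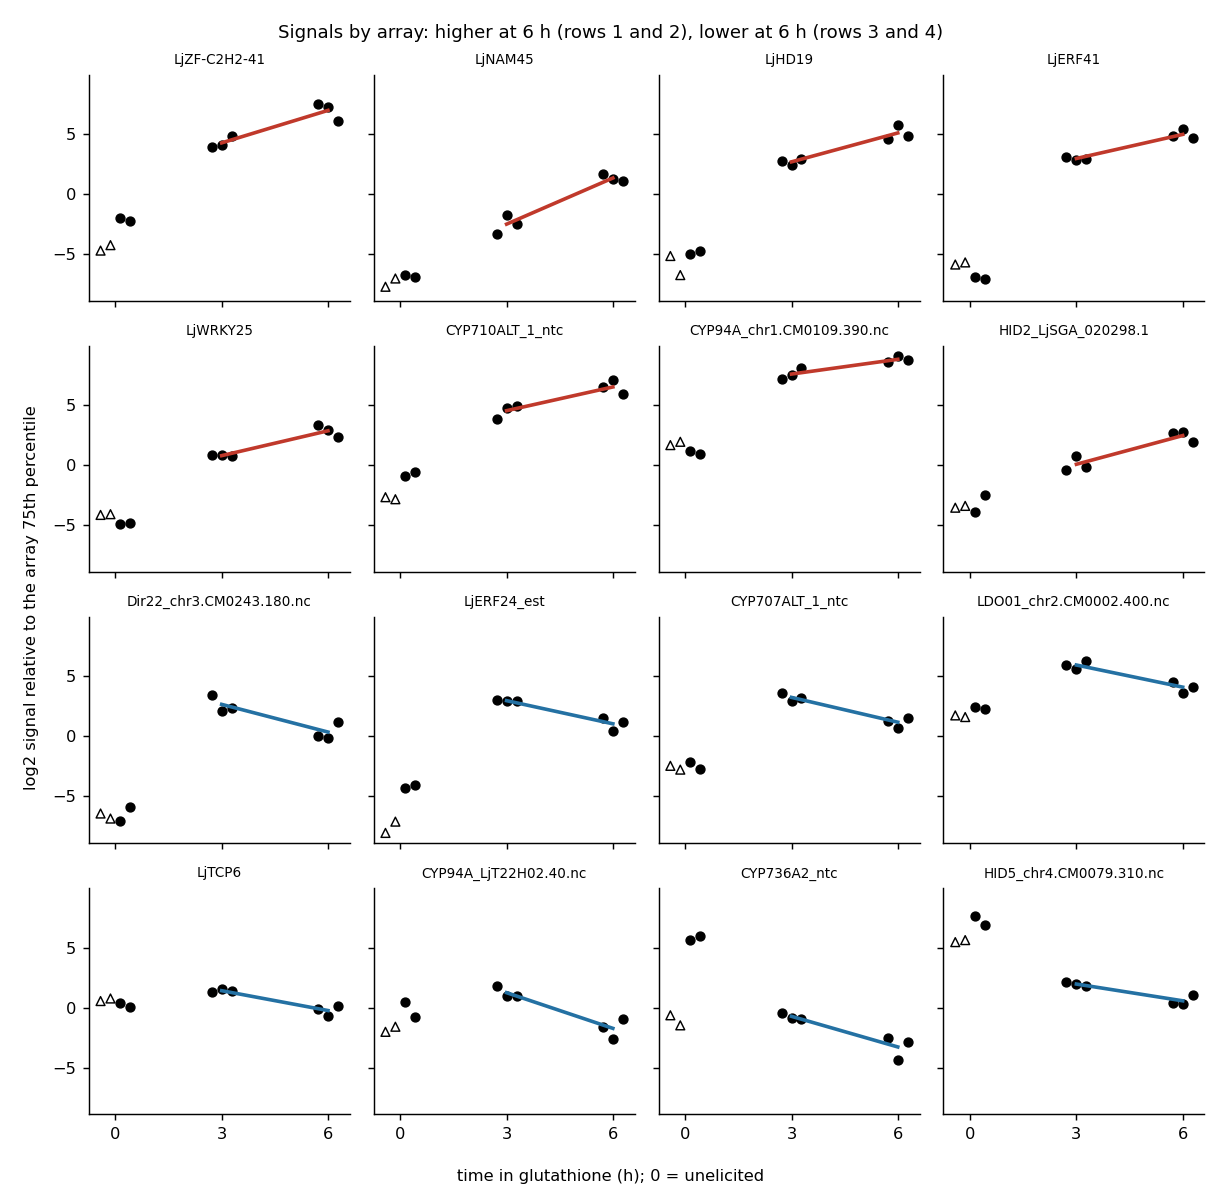
Relative log2 signal (y axis) on each array at 0 h (unelicited), 3 h and 6 h in GSH (x axis) for 16 targets, brightest probe each. Filled circles are arrays of the slide that holds all GSH samples, open triangles are the 2 unelicited arrays of the other slide, and the line joins the 3 h and 6 h means (red for a rise, blue for a fall). LjERF41 and LjWRKY25 climb at both steps, Dir22 and CYP707ALT_1 climb and then fall, and HID5 falls at both steps.

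Among names of cyanogenic glucoside metabolism, CYP736A2_ntc, an enzyme of the synthesis of these compounds in Lotus, fell between the times. The probe with the larger change stood at -0.86, -1.69 and -1.63 at 3 h and -3.77, -5.68 and -3.17 at 6 h, a log2 difference of -2.81 (SE 0.63, adjusted p = 0.025). Its unelicited arrays were split by slide, at -0.68 and -1.50 on one and 4.89 and 5.39 on the other, and the part of slide in this was not tested. CYP71A_chr3.CM0241.540.nd and FHYD08_LjT37G19.90.nc had the same split between slides and fell by 2.57 (SE 0.64, adjusted p = 0.035) and, for the latter, 2.45 (SE 0.56, adjusted p = 0.027). Of 24 beta-glucosidase targets 3 were lower (12.5%, beside 9.34% of all targets) and 0 higher. BGLU63_LjSGA_077946.1 was at least 4.46-fold lower at 6 h (adjusted p = 0.0095), where no array was well above background.

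Glycosyltransferases outside the isoflavone names went both ways. The names of the UGT71, UGT72, UGT73, UGT78 and UGT88 group gave 5 higher (16.1%) and 1 lower (3.23%) of 31 targets. The other UGT names gave 9 higher (13.6%) and 8 lower (12.1%) of 66, near the 10.4% and 9.34% of all targets. UGT74K_chr2.CM1150.40.nd was at least 9.12-fold higher at 6 h (adjusted p = 0.0054), with signals of -2.03, -0.56 and -1.77 there and no 3 h array well above background. UGT71B_chr3.CM0574.210.nd was transient, from 0.21, -0.08 and -0.34 to -1.89, -3.16 and -1.65 (log2 difference -2.16, SE 0.41, adjusted p = 0.016).

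Outside these families the largest fitted rise among tested targets was FSulph01_chr4.CM0087.400.nc, at least 6.44-fold higher at 6 h (adjusted p = 0.0034). It lay at -1.99, -2.42 and -1.46 at 6 h, overlapped the unelicited arrays at 3 h and was not well above background there. AAT01_LjSGA_011608.1 ran the other way, from -3.05, -2.32 and -3.08 to at least 2.78-fold lower (adjusted p = 0.0034), back within its unelicited range. LjJumonji-C16, named for the Jumonji demethylase domain, lay below all unelicited arrays at 3 h, at -3.82, -2.30 and -2.56. It rose by 3.22 (SE 0.47, adjusted p = 0.0083) to 0.56, 0.78 and -0.34 at 6 h. Its unelicited arrays were split by slide, at 0.60 and 0.27 on the shared slide and 4.0 and 3.82 on the other. The 6 h arrays overlapped those of the shared slide and lay below the others, so how far it recovered is uncertain.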

How the data were processed

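Cy3-labelled RNA was hybridised to 1-colour arrays. Per the file headers, the intensities the authors deposited are linear, background-subtracted and detrended, with no normalization between arrays. The software was Agilent Feature Extraction (version 10.7.3.1 in the submitters' processing notes). The deposited value table holds the same signal.

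From these, log2 signals were computed and set relative to the 75th percentile of the non-control probes of each array, with outlier spots (4 to 64 per array) left out. Probes well above background on every array of 1 group or the other were tested in limma 3.58.1 (R 4.3.3, lmFit and eBayes, two-sided) with Benjamini-Hochberg adjustment over 2704 probes at 0.05. A target takes its brightest probe. An "at least" fold sets the bright group's mean against, per array, the lowest signal well above background or the dim probe's own, whichever is higher.

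The labels call the arrays of a group replicates without naming plants, so p-values measure the spread between these samples, which limits precision with 3 arrays per group. Members and lists were chosen with earlier results of these data known. Named genes are the 15 largest rises and falls (at most 3 of a family), the largest per family with at least 5 tested targets, and all isoflavonoid pathway probes that passed. Names are the design's own, none matched the 40429 genes of the reference table, and probe sequences were not used here. Replicate numbers did not pair samples (same-number correlations -0.07, 0.11 and -0.11). The code was tested on simulated data.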

Additional observations from a re-analysis of the deposited data

Results flagged for a closer look

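Of the probes named in the text, 1 had an unelicited array far from the others. On 1 of the 2 probes of PAL07_chr1.CM0033.820.nc the unelicited signals were 1.78, 1.80, 0.60 and 1.74, and the gap below unelicited replicate 3 took 0.951 of the whole range. The 3 h and 6 h arrays of that probe all lay above 5.3. Over groups of unchanged values, chance marks about 1 group in 20.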

How the results depend on the processing

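The count of 510 probes (280 higher and 230 lower) stayed within 1.5 times under 2 further percentile scalings, quantile normalization, the deposited table, a filter on all 6 arrays, outlier spots kept, a mean-variance trend and a fit of the 8 arrays of the slide. With normexp it was 50 (43 and 7), without a filter 226 (141 and 85), with the spread of all 10 arrays 219 (130 and 89) and with array weights 840 (454 and 386). Spike-in scaling gave 140 higher and 541 lower, and row 1 of the slide, chosen after seeing the data, 0 and 0. The fit with the replicate number as a block gave 333 (190 and 143), but the numbers do not pair the samples. Leaving out each array gave 144 to 707 probes, 95 to 412 higher and 49 to 295 lower.

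Transient probes numbered 111, but 3 with normexp, 40 without a filter, 43 with all 10 arrays, 62 with the replicate block and 27 (without 3 h replicate 3) to 123 with each array left out. Still-rising probes numbered 152, but 54 with spike-in scaling, 40 with normexp, 66 without a filter, 69 with all 10 arrays, 93 with the replicate block, 252 with array weights and 47 (without 3 h replicate 1) to 239 (without 6 h replicate 3) with each array left out. Under normexp 104 of 123 named probes kept their sign but lost their call. A further 5 changed sign and did not pass: 7Methyl10_LjSGA_041643.1 (-0.0811), LjAP2-like3 (-0.15), CYP90A_LjSGA_014057.1 (-0.26), CYP76B_LjSGA_138924.1 (-0.042) and LjB3-29_est (-0.091). The median SE rose from 0.282 to 0.435 there, and the cause was not tested. A probe not well above background at one time has only a bound there.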

Other observations

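The 2 probes of a name gave like values: across 1036 names with both tested, the log2 differences correlated at 0.872, both probes passed in the same direction for 151 names and in opposite directions for 0, and 1 of the 2 passed for 111. Pairs of a plain name and its est name correlated at 0.856 over 332 pairs. These correlations are across probe pairs that share their arrays, and are given as descriptions.

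The 3 arrays at 6 h varied more than those at 3 h, with a median SD per probe of 0.366 against 0.249, and the lowest array weight was that of 6 h replicate 3 (0.328).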
